A study of Homo sapiens with 6 samples.

Results

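The expression of 10 extracellular matrix genes was followed in HGC27 cells. The genes were chosen by name: fibronectin (*FN1*), the elastic fibre and microfibril genes *FBLN1*, *FBN1*, *FBN2* and *EFEMP1*, and the matricellular and secreted matrix genes *TNC*, *SPARC*, *POSTN*, *TGFBI* and *FSTL1*. These are 10 of the 39739 gene rows in the deposited tables, and all 10 were found there by symbol. HGC27 is an established gastric cancer cell line, grown here in RPMI-1640 with fetal bovine serum. RNA was sequenced from 3 libraries of HGC27-FN1 3′-UTR cells, in which the 3′ untranslated region of *FN1* was stably overexpressed from a lentivirus under puromycin selection, and from 3 libraries labelled Control, whose vector the labels do not describe (HGC27-control cells). The comparison asks which transcripts differ between control cells and cells made to overexpress this untranslated region without the fibronectin protein. The insert, the infection and selection, and other differences between the cell lines cannot be told apart in it. Nothing in the labels says whether the 3 libraries of a group were separate cultures, so the p-values measure only the spread between these libraries, which may be technical.

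Fibronectin is a secreted dimer that cells assemble into fibrils through integrins. Fibrillins form the microfibrils on which elastin is laid down, and fibulins link these fibres to other matrix proteins. Matricellular proteins such as tenascin-C, SPARC and periostin are secreted into the matrix but serve mainly to alter adhesion and signalling rather than to carry load, and many of them are high in wound repair and in the stroma of tumours.

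The authors deposited RPKM, in which the reads of a gene are divided by the length of its exons in kilobases and scaled to 1000000 assigned reads, so levels of different genes are compared per length. The libraries held 16357085 to 29202046 assigned reads in HGC27-FN1 3′-UTR cells and 22332816 to 37037532 in HGC27-control cells. The test was limma, run on log2(RPKM + 0.1), a scale that understates the change of genes with low RPKM. A gene was tested if its RPKM was at least 0.1 in 3 or more libraries, and it was called at a Benjamini-Hochberg adjusted p under 0.05 over all 23299 genes tested. Among them, 1310 were higher and 1715 lower in HGC27-FN1 3′-UTR cells, a split that turned to 1696 higher and 1330 lower under median-ratio scaling. Of 10 epithelial marker genes, all tested, 8 rose, and their summed level was 22.1 to 31.2 RPKM in HGC27-FN1 3′-UTR cells against 4.79 to 5.17 in HGC27-control cells. Of 10 fibroblast marker genes, 9 were tested and 5 rose, with summed levels of 179 to 182 RPKM against 123 to 141. The 5 endothelial marker genes summed to under 0.2 RPKM in every library, with *PECAM1* at 0 reads throughout, and the 5 leukocyte marker genes found summed to 6.68 to 7.92 RPKM against 3.26 to 3.86, where *LYZ* was the 1 that rose. The part of these markers in the results on the matrix genes was not tested, and in bulk RNA fewer cells of a type and less RNA per cell cannot be told apart.

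Of the 10 genes, 8 passed the filter on low values, 6 were higher in HGC27-FN1 3′-UTR cells and 0 were lower by limma, and 0 were lower at an unadjusted p under 0.05 or by voom. Over all genes tested, 5.62% were called higher and 7.36% lower. The 6 were *TNC*, *SPARC*, *FSTL1*, *FN1*, *FBN2* and *POSTN*. *FN1* is the gene that was manipulated, and its value can hold reads from the introduced 3′-UTR. It is included in these counts and in the median and the count without overlap that follow. The median log2 fold change of the 8 tested genes was 0.54, against -0.04 over all genes tested. In 7 of the 8, the lowest HGC27-FN1 3′-UTR value exceeded the highest HGC27-control value, which was the case for 14.3% of all genes tested. The study's cut-offs for differentially expressed genes were a log2 fold change of more than 1 in size with p under 0.05. Here they were set on the limma values, with p before adjustment. *TNC* was the 1 that passed upward, where 1.65% of all genes tested did. The study's own list of such genes was not compared. Summed over the 10 genes, expression was 171 to 179 RPKM in HGC27-FN1 3′-UTR cells and 126 to 130 RPKM in HGC27-control cells.

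**Figure D1:**
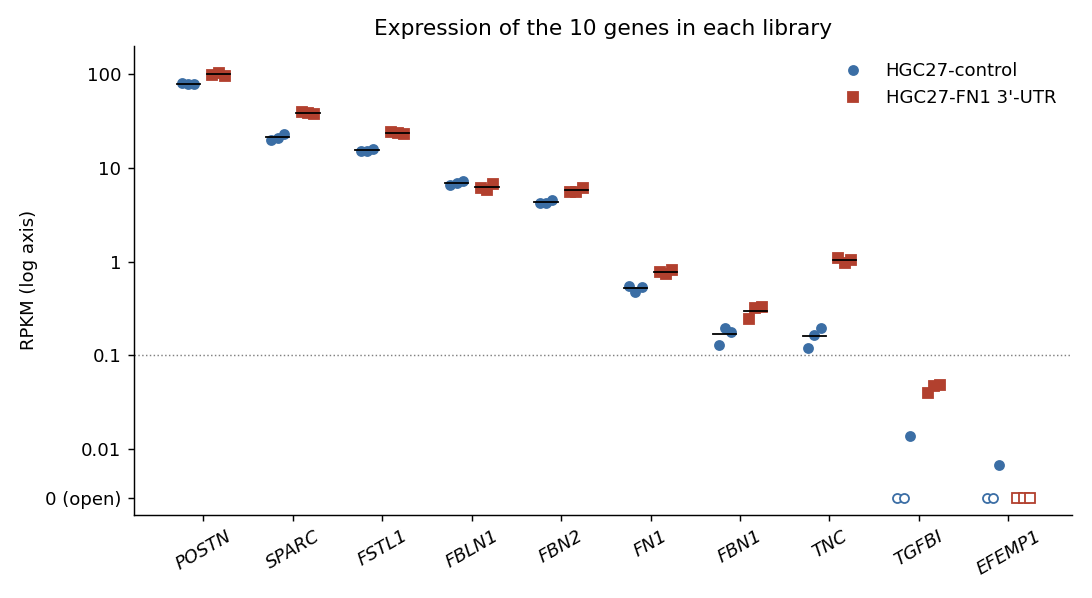
RPKM of each of the 10 genes in each library on a log axis, with HGC27-control libraries as blue circles and HGC27-FN1 3′-UTR libraries as red squares; open symbols are libraries at 0, bars are group means above 0.1 RPKM, and the dotted line is the minimum of 0.1 RPKM. *POSTN* lay highest in every library, and *TNC* moved from beside *FBN1* in HGC27-control cells to above *FN1* in HGC27-FN1 3′-UTR cells.

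The levels spanned a wide range. In HGC27-control cells the order from the top was *POSTN*, *SPARC*, *FSTL1*, *FBLN1*, *FBN2*, *FN1*, *FBN1* and *TNC*, followed by *TGFBI* and *EFEMP1* near 0. The values of *FBN1* and *TNC* overlapped there, while those of the neighbours above them in the order did not. In HGC27-FN1 3′-UTR cells *TNC* stood above *FN1* in every library. *FBLN1* and *FBN2* were neighbours whose values overlapped in HGC27-FN1 3′-UTR cells and not in HGC27-control cells. *POSTN* made up 55.7% to 57.8% of the summed RPKM of the 10 genes in HGC27-FN1 3′-UTR cells and 60.5% to 63.1% in HGC27-control cells.

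*FN1* is the gene whose 3′-UTR was overexpressed. Its annotated span on chromosome 2 is 215360440 to 215436172, reverse strand (GRCh38, as for all genes here). Its deposited value covers merged exons of 17315 nucleotides, and reads from the introduced 3′-UTR and from the endogenous transcript cannot be told apart in it. The 3′-UTR of the GENCODE release 29 transcript ENST00000357867.8 is 1101 nucleotides long after the stop codon, from 215360454 to 215361554. The primers with which the study measured the 3′-UTR and the coding sequence separately are shown because they mark the regions that the deposited value joins. The 3′-UTR pair lies in exon 44 of 44, at 215361479 to 215361500 and 215361328 to 215361348. The coding pair lies in exon 21, at 215399303 to 215399324, and exon 22, at 215397774 to 215397795. Each is written 5′ to 3′ with no part in capitals.
FN1 3′-UTR forward: actggagtgatgttagcagacc
FN1 3′-UTR reverse: cgaagcagaacaggcaatgtg
FN1 coding forward: acaacaccgaggtgactgagac
FN1 coding reverse: ggacacaacgatgcttcctgag

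*FN1* was at 0.777, 0.745 and 0.819 RPKM in HGC27-FN1 3′-UTR replicates 1 to 3 and at 0.543, 0.474 and 0.532 RPKM in HGC27-control replicates 1 to 3. The groups did not overlap, and all values were below 1 RPKM. The reads behind them were 220, 315 and 414 in HGC27-FN1 3′-UTR cells and 210, 253 and 341 in HGC27-control cells. *FN1* rose by a log2 fold change of 0.52 (SE 0.11, limma adjusted p = 0.029). Leaving out any of the 6 libraries ended this call, with log2 fold changes of 0.46 to 0.55 and limma adjusted p of 0.0614 to 0.0982. The call was also lost without the filter on low values, at a limma adjusted p of 0.0708. With a pseudocount of 1 the log2 fold change was 0.23. As scaled reads, *FN1* had a mean of 13.5 in HGC27-FN1 3′-UTR cells and 8.94 in HGC27-control cells (per 1000000 assigned reads).

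Among the elastic fibre and microfibril genes, *FBN2* rose, *FBLN1* and *FBN1* did not pass the test, and *EFEMP1* was near 0. *FBN2* (chromosome 5, 128257909 to 128659185, reverse strand) encodes fibrillin-2, the fibrillin best known from developing tissue. It was at 5.56, 5.57 and 6.14 RPKM in HGC27-FN1 3′-UTR replicates 1 to 3 and at 4.24, 4.22 and 4.55 RPKM in HGC27-control replicates 1 to 3. All 3 HGC27-FN1 3′-UTR libraries lay above the highest HGC27-control library. The log2 fold change was 0.40 (SE 0.059, limma adjusted p = 0.0107). Without HGC27-control replicate 2 it was 0.38 with a limma adjusted p of 0.0512, and the call was lost.

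*FBN1* (chromosome 15, 48408306 to 48645849, reverse strand) encodes fibrillin-1, the main microfibril protein of adult tissue. It was at 0.244, 0.321 and 0.326 RPKM in HGC27-FN1 3′-UTR cells and at 0.128, 0.194 and 0.178 RPKM in HGC27-control cells. The groups did not overlap, but HGC27-FN1 3′-UTR replicate 1 was nearer to the HGC27-control libraries than the other two. Its reads numbered 64 to 153 and 46 to 106 per library. The log2 fold change was 0.57 (SE 0.19, limma adjusted p = 0.106), with a 95% interval of 0.11 to 1.04. With limma's voom on the recovered reads it was 0.84 with an adjusted p of 3.49e-04, and with a pseudocount of 1 it was 0.15, so the size for this low gene moved with the scale.

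*FBLN1* (chromosome 22, 45502238 to 45601135, forward strand) encodes fibulin-1, which binds fibronectin and elastin-containing fibres. It was at 6.07, 5.82 and 6.81 RPKM in HGC27-FN1 3′-UTR cells and at 6.48, 6.89 and 7.19 RPKM in HGC27-control cells. The groups overlapped, with the highest HGC27-FN1 3′-UTR library inside the HGC27-control range. The log2 fold change was -0.14 (SE 0.071, limma adjusted p = 0.256), with a 95% interval of -0.31 to 0.03.

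*EFEMP1* (chromosome 2, 55865967 to 55924139, reverse strand), which encodes fibulin-3, had 0 reads in 5 libraries and 1 read in HGC27-control replicate 3. It was not tested. Over the 3 HGC27-FN1 3′-UTR libraries together, 0 reads allow up to 0.0429 reads per 1000000, which is 3 reads, for counting error only.

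Among the matricellular genes, *TNC* had the largest log2 fold change of the 8 genes tested. *TNC* (chromosome 9, 115019578 to 115118257, reverse strand) encodes tenascin-C, a hexameric glycoprotein that reduces adhesion to fibronectin. It was at 1.08, 0.960 and 1.04 RPKM in HGC27-FN1 3′-UTR replicates 1 to 3 and at 0.121, 0.165 and 0.196 RPKM in HGC27-control replicates 1 to 3. The lowest HGC27-FN1 3′-UTR library was far above the highest HGC27-control library. The reads were 171, 226 and 293 in HGC27-FN1 3′-UTR cells and 26, 49 and 70 in HGC27-control cells. *TNC* rose by a log2 fold change of 2.12 (SE 0.15, limma adjusted p = 0.00126), higher than 99.8% of all genes tested. The ratio of mean RPKM was 6.40, and the log2 fold change was 0.81 with a pseudocount of 1 and 2.01 to 2.22 without any library in turn.

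*SPARC* (chromosome 5, 151661096 to 151687165, reverse strand) encodes osteonectin, a collagen-binding matricellular protein. It was at 39.5, 38.5 and 37.6 RPKM in HGC27-FN1 3′-UTR cells and at 19.98, 20.8 and 23.0 RPKM in HGC27-control cells. The groups were well apart, and the spread within each was small beside the gap. *SPARC* rose by a log2 fold change of 0.86 (SE 0.056, limma adjusted p = 9.1e-04), with 12965 reads in HGC27-FN1 3′-UTR cells and 9377 in HGC27-control cells. The row *CTB-113P19.1* overlaps it on the opposite strand, with 3406 and 2401 reads. Whether counting used the strand is not given in the sources used here, so reads of the overlap could be shared.

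*POSTN* (chromosome 13, 37562583 to 37598844, reverse strand) encodes periostin, which binds fibronectin, tenascin-C and collagen and is a known product of activated stroma. It was the highest of the 10, ranking between 477 and 642 from the top over the libraries. It was at 98.9, 103.7 and 95.5 RPKM in HGC27-FN1 3′-UTR cells and at 79.5, 79.3 and 78.9 RPKM in HGC27-control cells. The groups did not overlap, and the HGC27-control libraries were nearly equal. *POSTN* rose by a log2 fold change of 0.33 (SE 0.035, limma adjusted p = 0.00447), the smallest of the 6 increases. In RPKM its rise of 20.1 was the largest of the 10.

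*FSTL1* (chromosome 3, 120392293 to 120451253, reverse strand) encodes follistatin-like 1, a secreted glycoprotein of the SPARC family. It was at 24.1, 23.8 and 23.3 RPKM in HGC27-FN1 3′-UTR cells and at 14.98, 15.1 and 15.9 RPKM in HGC27-control cells. The values were tight in both groups and did not overlap. *FSTL1* rose by a log2 fold change of 0.63 (SE 0.034, limma adjusted p = 5.17e-04), the smallest adjusted p of the 8 genes tested. The rows *RP11-174O3.3* and *SLC27A6* overlap *FSTL1* and *FBN2* on the opposite strand, with 485 and 918 reads in HGC27-FN1 3′-UTR cells and 386 and 907 in HGC27-control cells.

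*TGFBI* (chromosome 5, 136028895 to 136063818, forward strand) encodes a secreted protein induced by TGF-β that binds integrins. It had 5, 9 and 11 reads in HGC27-FN1 3′-UTR replicates 1 to 3 and 0, 0 and 4 reads in HGC27-control replicates 1 to 3. Every value was below 0.05 RPKM, and the groups did not overlap. It was not tested. Together the reads were 25 and 4, or 0.357 and 0.0444 per 1000000 assigned reads, a ratio of 8.05 with an exact 95% interval of 2.78 to 31.8 that covers counting error only. In the fit without the filter the log2 fold change was 0.47 (limma adjusted p = 0.0694).

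**Figure D2:**
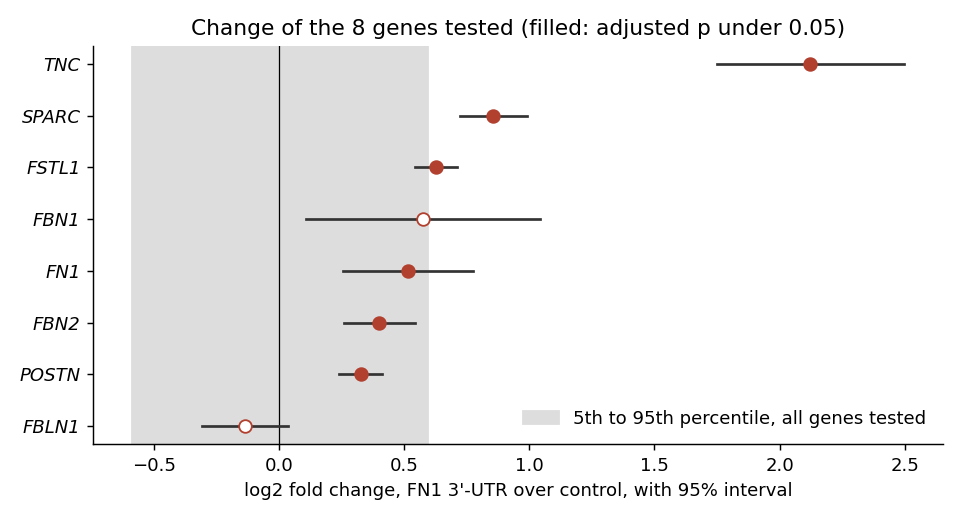
Log2 fold change of the 8 genes tested, HGC27-FN1 3′-UTR over HGC27-control, with 95% limma intervals as lines; filled points have an adjusted p under 0.05, and the grey band is the 5th to 95th percentile of all genes tested, -0.59 to 0.60. *TNC* and *SPARC* lay outside the band with their whole intervals, and the interval of *FBLN1* included 0.

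*SPARC*, *POSTN*, *FSTL1* and *TNC* were called in every alternative that tested them. These were other pseudocounts, other filters, another scaling, no trend in the prior variance, the replicate number as a block, voom on recovered reads and each library left out in turn. *TNC* was not tested with a minimum mean RPKM of 1, and neither were *FN1* and *FBN1*. The log2 fold changes ranged from 0.60 to 0.66 for *FSTL1*, from 0.81 to 0.91 for *SPARC* and from 0.29 to 0.36 for *POSTN*.

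**Figure D3:**
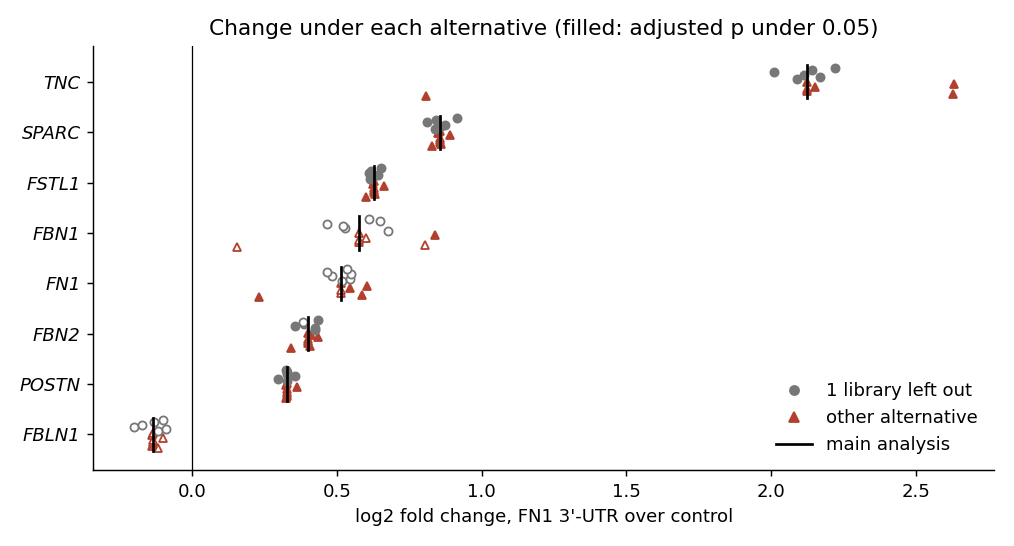
Log2 fold change of the 8 genes tested under each alternative, with 1 library left out (grey circles) or another setting (red triangles); black bars are the main values and filled symbols have an adjusted p under 0.05. No gene changed direction, though for the 7 genes without overlap between the groups most of these settings could not reverse it. All 6 circles of *FN1* are open, and *TNC* ranged from 0.81 to 2.63.

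Ratios between the genes within each library were compared for 6 chosen pairs. Each ratio restates the changes of both its genes. The share of other gene pairs without overlap was not computed, so the separations below have no background beside them. The ratio of *SPARC* to *FSTL1* in RPKM was 1.62 to 1.64 in HGC27-FN1 3′-UTR cells and 1.33 to 1.45 in HGC27-control cells. The ratio of *POSTN* to *SPARC* was 2.51 to 2.69 and 3.43 to 3.98, and that of *TNC* to *FN1* was 1.27 to 1.40 and 0.222 to 0.369. In these 3 pairs the groups did not overlap. The same held for *FBLN1* to *FBN2*, at 1.05 to 1.11 and 1.53 to 1.63, and for *POSTN* to *FN1*, at 117 to 139 and 146 to 167. *FBN2* to *FBN1* overlapped, at 17.3 to 22.8 and 21.8 to 33.04. An exact two-sided permutation test of 3 libraries against 3 gave p = 0.1, the smallest it can give, for each of the 5 pairs without overlap, and p = 0.2 for *FBN2* to *FBN1*. Adjusted over the 6 pairs, the exact permutation p were 0.12 and 0.2.

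Related genes were counted from 3 lists, none of which holds any of the 10, to be read against all genes tested, of which 5.62% were called higher and 7.36% lower, with a median log2 fold change of -0.04. Of 33 elastic fibre genes, 25 were tested, 6 rose and 0 fell by limma, with a median log2 fold change of 0.04. At an unadjusted p under 0.05, 2 fell, and by voom 3 did. *HMCN1*, a hemicentin of the fibulin family, rose by 0.88, *ADAMTSL1* by 0.82, *LOX*, the enzyme that cross-links collagen and elastin, by 0.39, and *FBLN5*, a fibulin needed for elastic fibres, by 0.38 on the log2 scale, the last at a limma adjusted p just under the threshold. The count of 6 fell to 2 without HGC27-FN1 3′-UTR replicate 1 or HGC27-control replicate 2, to 3 without HGC27-FN1 3′-UTR replicate 2, HGC27-control replicate 1 or HGC27-control replicate 3, and to 4 without HGC27-FN1 3′-UTR replicate 3.

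The list of 34 matricellular genes was drawn widely, with nidogens, matrilins and stabilins in it, and it did not hold *THBS1*. Of the 34, 22 were tested, 9 rose and 2 fell, with a median log2 fold change of 0.16. *VTN*, which encodes vitronectin, rose by 1.53, *CCDC80* by 1.49, and *CYR61* and *CTGF*, both of the CCN family, by 1.39 and 1.34 on the log2 scale. *SPOCK3* and *COMP* fell by 1.21 and 0.69, and 2 of 22 is near the 7.36% of all genes called lower. Without HGC27-control replicate 2 or HGC27-control replicate 3, 1 gene fell. Of 32 genes of fibronectin assembly and adhesion, 26 were tested, 11 rose and 2 fell, with a median of 0.15. *PARVA* and *TNS2*, which link integrins to actin, rose by 0.66 and 0.49, the syndecan *SDC2* by 0.41 and the integrin subunit *ITGAV* by 0.39. The syndecan *SDC3* and *ITGA5*, the α subunit of the main fibronectin receptor, fell by 0.32 and 0.30, and 2 of 26 is near the 7.36% of all genes called lower. The number of genes of this list called lower was 0 without HGC27-FN1 3′-UTR replicate 1 or 2 or HGC27-control replicate 2 or 3, and 1 without HGC27-control replicate 1.

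**Figure D4:**
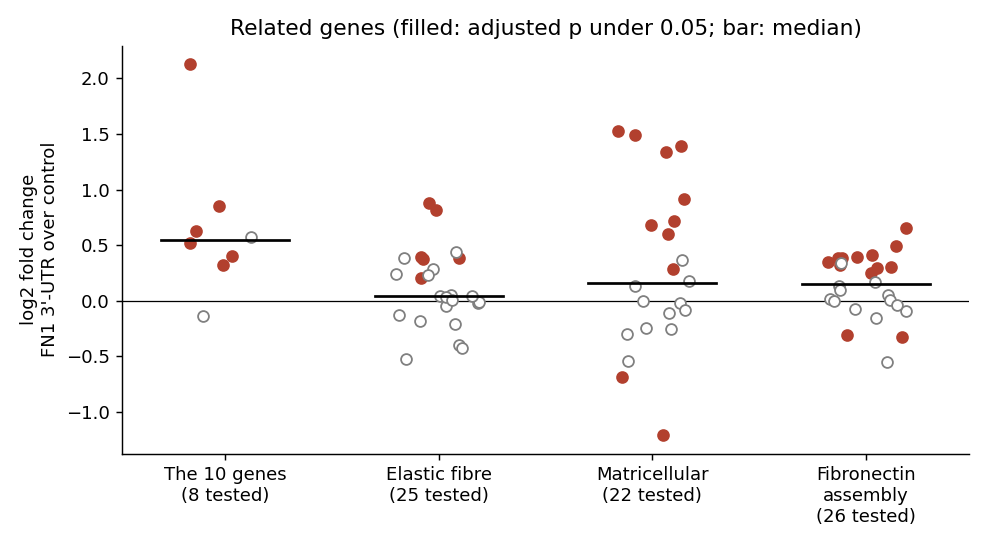
Log2 fold change, HGC27-FN1 3′-UTR over HGC27-control, of the tested genes among the 10 and in the 3 lists of related genes; each point is a gene, filled at an adjusted p under 0.05, and bars are medians. The medians were 0.54, 0.04, 0.16 and 0.15, and the matricellular list spread from -1.21 to 1.53.

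The seeds of 4 miRNAs that the study followed after a pull-down with the *FN1* 3′-UTR were searched in the 3′-UTRs of the 10 genes. A seed is bases 2 to 8 of the miRNA, the part that pairs with a target, and it is in capitals here. No seed is shared by any pair of the 4. Mature sequences are those of RefSeq (GRCh38.p14), at 62603691 to 62603712 on chromosome 12 (forward strand), 70079427 to 70079447 on chromosome 15 (reverse), 30117095 to 30117117 on chromosome 17 (forward) and 58817626 to 58817647 on chromosome 20 (reverse), in the order shown.
hsa-let-7i-5p: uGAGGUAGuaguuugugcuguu
hsa-miR-629-5p: uGGGUUUAcguugggagaacu
hsa-miR-423-5p: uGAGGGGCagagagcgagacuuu
hsa-miR-296-3p: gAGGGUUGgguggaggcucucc

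The 3′-UTR of 1 GENCODE release 29 transcript for each gene was searched on its own strand for the 7 letters that pair with each seed. The letters CTACCTC, for hsa-let-7i-5p, were in none of the 10 and in 8.61% of all 18818 3′-UTRs, and GCCCCTC, for hsa-miR-423-5p, was in none of the 10 and in 13.4%. The letters TAAACCC, for hsa-miR-629-5p, were in *FBN2* and *FSTL1* and in 6.44% of all, and CAACCCT, for hsa-miR-296-3p, was in *POSTN* and in 7.76%. The other 7 genes, *FN1* included, held none of these letters in the transcript searched. Only exact matches to the 7 letters were searched, so the absence of a match does not show the absence of a site. For *FN1*, the paper reports predicted sites of these miRNAs in the 3′-UTR. In its luciferase assays, mimics of each miRNA lowered the activity of a reporter with this 3′-UTR, and mutant mimics did not. The match in *FBN2* is at 128258383 to 128258389 on chromosome 5 in exon 71 of 71, that in *FSTL1* at 120393108 to 120393114 on chromosome 3 in exon 11 of 11, and that in *POSTN* at 37563296 to 37563302 on chromosome 13 in exon 23 of 23, all on the reverse strand of GRCh38. Among 3′-UTRs within a ratio of 0.8, either way, of the length of that of *FSTL1*, 4659 nucleotides, TAAACCC was in 17.2%. For *FBN2* the share was 6.26%, and for *POSTN* and CAACCCT it was 5.05%. All 3 matches are shown in capitals within their surroundings, to be set beside the increases of these genes. A match describes letters and is not a measured site.
FBN2: tgttgttgtttTAAACCCatttttttttt
FSTL1: gaagggaatctTAAACCCagtttgaaggg
POSTN: aaatgtttataCAACCCTaagtcaataac

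RefSeq promoters of 300 bases (GRCh38.p14), from 250 before to 50 after the start of transcription, were matched for 9 of the 10 genes. *EFEMP1* had no entry. Both strands were searched for the AP-1 motif TGANTCA, the CRE motif TGACGTCA, the TEAD motif GGAATG, the TATA box TATAAA, the GC box GGGCGG, the ZEB motif CACCTG, the SMAD motif GTCTAGAC and, by name, the CArG box of SRF. No match overlapped one of another motif. *POSTN* held the AP-1 motif, found in 7.76% of 27305 promoters, and TATAAA, found in 12.0%, and *FN1* held the CRE motif, found in 1.98%. *FBN1* and *SPARC* held the TEAD motif, found in 14.0%. The GC box was in 6 of the 9, all but *FBN1*, *SPARC* and *POSTN*, and in 44.6% of all promoters. The ZEB motif, the SMAD motif and the CArG box were in none of the 9 and in 20.6%, 0.201% and 1.29% of all. The *POSTN* promoter had 39% G and C, against a median of 58.3% over all promoters and 76.7% for *FN1*. Matches other than the GC box are shown with the motif in capitals, so that the promoters of the genes that rose and of *FBN1* can be compared. They lie at 215436244 to 215436251 on chromosome 2, 37598982 to 37598988 and 37598792 to 37598797 on chromosome 13, 48645023 to 48645028 on chromosome 15 and 151686927 to 151686932 on chromosome 5, each written on the reverse strand, which is that of the gene. A further TATAAA on the opposite strand of the *POSTN* promoter is not shown.
FN1, CRE: acagtcccccgTGACGTCAcccggagcccg
POSTN, AP-1: taaacatgcagTGAGTCAattgttcatatg
POSTN, TATA: ctctgacatgtaTATAAAttctgagctctc
FBN1, TEAD: gggttgggcttgGGAATGgggaccgcgagg
SPARC, TEAD, on the opposite strand: taaacccctccaCATTCCcgcggtccttca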

How the data were processed

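The deposited values were RPKM, with a separate table for each library. Per the labels, the processing notes name Trimmomatic 0.36, STAR 2.5.3a, Subread 1.5.1, featureCounts and GRCh38, with no roles given. The annotation release, the strand setting and the handling of duplicate reads are not given in the sources used here. Libraries were strand-specific mRNA libraries. RPKM multiplied by gene length was a whole number of reads, within 0.05 read, for 100% of values above 0, and these reads gave the depth. No pair of replicates matched within sampling noise (chi-square per gene 2.67 to 6.19).

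Values were tested as log2(RPKM + 0.1) with limma 3.58.1 in R 4.3.3, two-sided, with group as the only term and a trend in the prior variance. On simulated reads, 178 of 200 changed genes and 14 of 22495 unchanged genes were called. The planted log2 fold changes were 1 or 2 in size, in genes above a minimum number of reads and with a fixed dispersion. These changes were larger than those of *SPARC*, *FSTL1*, *FN1*, *FBN2* and *POSTN*, so the simulation does not show how well changes of that size are called. The 10 genes and the lists of related genes and markers were chosen with earlier results of these data known. All 10 are named, and of each list up to 4 genes per direction, by largest absolute log2 fold change among those called, and any gene at 0 reads in every library. The alternatives tried were 2 other pseudocounts, 2 other filters, median-ratio scaling, no trend, voom on recovered reads, the replicate number as a block and each library left out. Same-numbered libraries did not deviate together (r = 0.0024, 0.021 and 0.010 across genes). Intervals on reads cover counting error only. Tables and figures were made with Python 3.11.15, pandas 2.3.3, numpy 2.4.6, scipy 1.17.1 and matplotlib 3.10.9.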

Additional observations from a re-analysis of the deposited data

How the results depend on the processing

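None of the 8 genes tested changed direction under any alternative. For the 7 whose groups did not overlap, another pseudocount or filter, the block or a left-out library could not reverse the direction. For these genes the absence of a reversal under those settings therefore says little. *TGFBI* and *EFEMP1* were fitted only without the filter on low values, so a change of direction could not be asked for them. The number higher among the 8 genes was 4 to 7, with 4 to 5 when a library was left out. When the replicate number was added as a block, 5 of these genes were higher, *FN1* lost its call (limma adjusted p = 0.0852), 564 genes were higher and 598 lower over all genes, and the related lists had 2 elastic fibre and 7 fibronectin assembly genes higher, 0 fibronectin assembly genes lower and 1 matricellular gene lower. Same-numbered libraries did not deviate together, but the labels do not say whether they were paired. In this balanced design the block cannot alter a log2 fold change, so that of *FN1* stayed at 0.52 and only its adjusted p moved. With voom on recovered reads, 2043 genes were higher and 3065 lower, and 3 elastic fibre genes were lower. A minimum mean RPKM of 1 left *TNC*, *FN1* and *FBN1* untested. With it, 4 of the 10 were higher, and 1 elastic fibre gene and 1 matricellular gene were lower. With 1 library left out, 501 to 927 genes were higher and 470 to 1015 lower, 2 to 4 elastic fibre genes were higher and 0 to 1 lower, 0 to 2 fibronectin assembly genes were lower and 1 to 2 matricellular genes were lower. The cause of these shifts was not tested. Depth limits *TGFBI* and *EFEMP1*, with at most 11 reads in a library.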
